A study of Homo sapiens with 11 samples.

Results

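The human tetraspanin genes were examined in peak lists from chromatin immunoprecipitation followed by sequencing (ChIP-seq) of pancreatic ductal adenocarcinoma cell lines, in a study whose title concerns the transcription factor MYRF. The set held 33 genes, named as a protein family and matched by symbol to 33 of 20033 protein-coding genes of the RefSeq GRCh38.p14 table. A peak was assigned to a gene when its summit lay in the gene's span or within 20 kb of either end, a stretch called the gene's window. A site was called replicated when a peak of replicate 1 and a peak of replicate 2 overlapped by at least 1 bp and both summits lay in the window. Of the 33 genes, 28 held acetylation of histone H3 at lysine 27 (H3K27ac), a mark of active promoters and enhancers, in both control lists, and 16100 other genes that did so served as the background.

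The peak lists fell into 5 groups of 2 libraries each, so 10 in all. In the MYRFKO clone, CFPAC1 cells had been infected with the lentiCRISPRv2 plasmid expressing wild-type Cas9 and a guide RNA against MYRF, and 1 clone was grown out by dilution before H3K27ac was mapped. In the MYRFWT clone, which is the control, CFPAC1 cells had been infected with lentiCRISPRv2, with no MYRF guide named, and likewise cloned before H3K27ac was mapped. FOS, which forms part of the AP-1 dimer, was mapped in a CFPAC1 clone made the same way as the control. MYRF was mapped with a home-made antibody in the original CFPAC1 and HPAF2 lines, kept in IMDM and RPMI medium. Each clone is a single isolate, so the loss of MYRF and the identity of the clone cannot be told apart, and none of the lists measured MYRF in the MYRFKO clone. The labels do not say that the replicates were separate cultures, so every spread and p-value given here may be technical.

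Tetraspanins are small membrane proteins that cross the membrane several times and gather integrins, proteases and adhesion molecules into patches of the cell surface and of endosomes. CD9, CD63 and CD81 are standard markers of extracellular vesicles, and CD151 binds the laminin-binding integrins of epithelial cells. The TspanC8 subgroup (TSPAN5, TSPAN10, TSPAN14, TSPAN15, TSPAN17 and TSPAN33) carries the protease ADAM10 out of the endoplasmic reticulum, where MYRF itself is made as a membrane protein that cleaves off its DNA-binding part. Other members belong to particular tissues, such as the uroplakins UPK1A and UPK1B of the bladder lining, PRPH2 and ROM1 of photoreceptor discs, and CD37, CD53 and TSPAN32 of blood cells.

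RefSeq promoter windows (GRCh38.p14), which run from 250 bases before to 50 bases after an annotated start, were found for 25 members, 45 windows in all. The first sequence is shown because it is the promoter of a member on which a MYRF peak of both replicates lay, and the other 4 were chosen after their values were seen, to show FOS peaks and matching letters with and without a peak. TSPAN8 lies on the minus strand at chr12:71157950-71158249, and its capitals mark the 116 bases between the summits of the HPAF2 MYRF replicates. CD63 lies on the minus strand at chr12:55728960-55729259, with the AP-1 letters TGACTCA in capitals. TSPAN15 lies on the plus strand at chr10:69451215-69451514, and its capitals mark the 82 bases covered by the FOS peaks of both replicates. CD9 lies on the plus strand at chr12:6200592-6200891, with the MYRF letters CTGGCAC in capitals. TSPAN10 lies on the plus strand at chr17:81642055-81642354, with CTGGCAC and TGACTCA in capitals as read on either strand.
TSPAN8: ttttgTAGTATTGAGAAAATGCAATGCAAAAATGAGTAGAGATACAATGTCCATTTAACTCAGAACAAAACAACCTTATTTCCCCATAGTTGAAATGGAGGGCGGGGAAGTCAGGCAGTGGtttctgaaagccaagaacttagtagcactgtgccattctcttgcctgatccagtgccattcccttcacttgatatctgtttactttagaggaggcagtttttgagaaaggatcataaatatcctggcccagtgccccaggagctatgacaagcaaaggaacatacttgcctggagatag
CD63: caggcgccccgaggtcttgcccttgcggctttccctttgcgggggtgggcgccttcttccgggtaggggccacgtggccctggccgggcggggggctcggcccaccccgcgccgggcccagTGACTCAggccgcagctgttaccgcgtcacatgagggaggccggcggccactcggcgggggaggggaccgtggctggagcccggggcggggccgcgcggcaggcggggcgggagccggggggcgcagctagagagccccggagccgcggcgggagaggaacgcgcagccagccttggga
TSPAN15: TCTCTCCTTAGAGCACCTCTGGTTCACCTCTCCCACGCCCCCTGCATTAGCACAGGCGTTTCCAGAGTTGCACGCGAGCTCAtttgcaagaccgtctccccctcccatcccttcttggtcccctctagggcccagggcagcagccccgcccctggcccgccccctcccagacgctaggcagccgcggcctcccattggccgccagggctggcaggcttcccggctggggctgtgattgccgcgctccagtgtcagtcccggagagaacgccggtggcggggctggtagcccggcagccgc
CD9: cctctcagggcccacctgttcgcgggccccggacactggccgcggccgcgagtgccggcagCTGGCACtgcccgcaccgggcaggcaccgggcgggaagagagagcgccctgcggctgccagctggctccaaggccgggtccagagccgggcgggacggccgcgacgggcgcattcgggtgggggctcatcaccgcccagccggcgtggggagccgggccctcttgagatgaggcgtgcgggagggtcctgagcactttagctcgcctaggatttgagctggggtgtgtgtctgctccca
TSPAN10: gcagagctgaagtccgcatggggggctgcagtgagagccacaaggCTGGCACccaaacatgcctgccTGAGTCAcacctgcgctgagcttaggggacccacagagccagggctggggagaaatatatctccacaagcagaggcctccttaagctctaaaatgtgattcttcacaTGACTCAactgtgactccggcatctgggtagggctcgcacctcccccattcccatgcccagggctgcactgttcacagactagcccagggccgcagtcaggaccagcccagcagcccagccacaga

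The promoters were searched on both strands for 3 strings, CTGGCAC and CTGGTAC for MYRF and TGACTCA for AP-1, which do not overlap one another in these windows. A MYRF string occurred in 4 of the 45 member windows (8.89%) and in 7.04% of all 22198 promoter windows of protein-coding genes, and TGACTCA occurred in 3 member windows (6.67%) and in 4.01% of all. CTGGCAC began 189 bases before the CD9 start at position 6200842, in a window that no MYRF peak touched in any of the 4 MYRF lists while H3K27ac covered it in all 4 H3K27ac lists. In TSPAN10, CTGGCAC began 205 bases and TGACTCA 183 and 76 bases before the start, and no peak of any list touched the window. TGACTCA began 129 bases before the CD63 start at position 55729009, and there both FOS replicates had a peak. The summits of those peaks, at 55729260 and 55729293, lay just outside the window. In ROM1, TGACTCA began 45 bases before the start, in a window that no FOS peak touched. The TSPAN8 window that carried the HPAF2 MYRF peak held none of the 3 strings. Nor did the TSPAN15 window that FOS peaks overlapped, with their summits upstream of it. A match is a description of letters, and a window without one says nothing about the factor.

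Replicated MYRF sites lay in the windows of 6 tetraspanin genes. In CFPAC1 they were UPK1B, CD9, TSPAN15, TSPAN14 and TSPAN1, which is 5 of the 33 genes, or 5 of the 28 acetylated ones (17.9%), beside 12.9% of the background genes. In HPAF2 they were TSPAN15, CD9, TSPAN8 and UPK1B, which is 4 of the 28 (14.3%) beside 12.4%. CD9, TSPAN15 and UPK1B had a MYRF site in both lines, 3 of the 28 (10.7%) beside 7.34% of the background. These shares lay near the background and are not a result about the family as a whole, so the sites are described gene by gene.

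**Figure D1:**
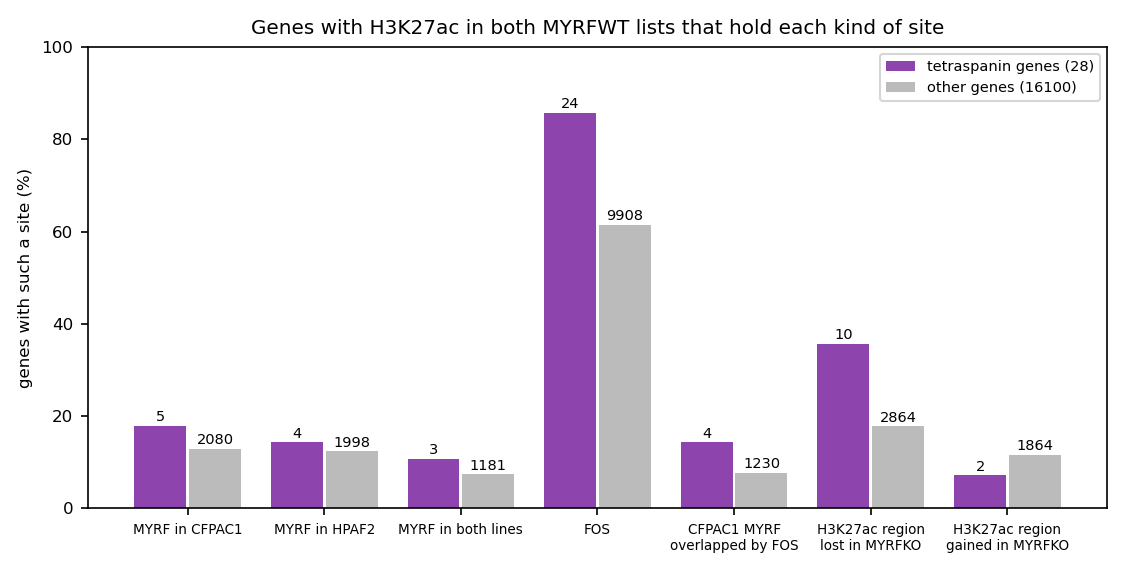
Bars give the percentage of genes with H3K27ac in both MYRFWT lists that held each kind of replicated site, for 28 tetraspanin genes (purple) and 16100 other genes (grey), with the number of genes above each bar. The widest gap is for FOS, 24 genes (85.7%) against 61.5%, while for MYRF in CFPAC1 17.9% stands beside 12.9%.

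UPK1B, a uroplakin best known from the bladder lining, had the most MYRF sites in CFPAC1. There were 4 replicated sites in its window, and the highest-ranking, at chr3:119181775-119182509 in replicate 1, lay in the gene 8566 bp downstream of the start with a fold enrichment of 9.61 in replicate 1 and 12.8 in replicate 2. Fold enrichment is the authors' value for a peak over its local background and is used here only to rank peaks within a list, where these stood at percentiles 88.0 and 92.2. A further site 2830 bp downstream of the start had folds of 8.20 and 7.22, and one 11393 bp downstream had 3.81 and 4.53. The last, with 5.02 and 6.18, lay 266 bp from B4GALT4, a glycosyltransferase gene, and is nearer to that gene than to UPK1B. HPAF2 had 1 of these sites, the strongest one, with folds of 5.24 and 3.86, and the summit in HPAF2 replicate 1 lay 66 and 188 bp from the CFPAC1 summits.

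CD9, a partner of integrins and of the immunoglobulin proteins IGSF8 and PTGFRN, had 1 site that both lines shared, inside the gene. In CFPAC1 it lay at chr12:6215815-6216279 in replicate 1, with folds of 8.33 and 9.27 at percentiles 84.1 and 85.9. In HPAF2 the same place had folds of 4.65 and 5.05 at percentiles 35.0 and 43.3, and the summit in replicate 1 lay 47 and 9 bp from the CFPAC1 summits. The site thus ranked high in both CFPAC1 lists and below the middle of both HPAF2 lists.

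TSPAN15, a TspanC8 member that directs ADAM10 towards N-cadherin, had a MYRF site of similar rank in both lines. The shared site lay 1638 bp upstream of the start, at chr10:69449648-69450008 in CFPAC1 replicate 1, with folds of 6.22 and 5.77 in CFPAC1 and of 6.20 and 6.11 in HPAF2. Its percentiles were 69.0 and 59.4 in CFPAC1 and 64.5 and 62.0 in HPAF2. HPAF2 had 2 more sites, 7564 bp downstream of the start with folds of 5.43 and 4.91, and 4588 bp upstream with 3.93 and 4.62, where CFPAC1 had no MYRF peak.

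TSPAN14, another TspanC8 member, had 2 sites in CFPAC1, deep in the gene, the stronger with folds of 5.02 and 5.35 at percentiles 48.6 and 49.8 and the weaker with 3.31 and 4.64. TSPAN1, reported at raised levels in several carcinomas, had 1 site in CFPAC1 8309 bp downstream of the start, at chr1:46183277-46183581 in replicate 1. Its folds of 6.41 and 4.28 put it at percentile 71.0 of one list and 21.4 of the other, the least even pair among the CFPAC1 genes. Both sites had a peak in 1 HPAF2 list only, with a fold of 4.25 for the stronger TSPAN14 site in replicate 2 and of 5.15 for TSPAN1 in replicate 1.

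TSPAN8, a cell surface antigen of colorectal and pancreatic carcinomas, had MYRF sites in HPAF2 and no MYRF peak in either CFPAC1 list. One of its 2 sites sat on the promoter printed above, at chr12:71157960-71158690 in replicate 1, with a summit 245 bp upstream of the start and folds of 3.97 and 6.47. The other lay 5430 bp upstream with folds of 4.37 and 4.58. The promoter was the only MYRF-covered promoter of the family in either line, 1 of 25 genes with a window in HPAF2 (4.0%, beside 1.08% of 15817 other genes) and 0 of 25 in CFPAC1 (beside 1.31%). H3K27ac covered all 2000 bp around the promoter site in each of the 4 CFPAC1 libraries, where MYRF was not listed.

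Several calls rested on moderate peaks. With a -log10 q of at least 10 the replicated calls fell to 3 of the 28 acetylated members in CFPAC1, beside 5.55% of the background genes, and to 1 of 28 in HPAF2, beside 5.91%. That 1 was TSPAN15, which was then the only member called in both lines. HPAF2 had further peaks in a single list, in the windows of CD82, TSPAN1, TSPAN9, TSPAN11, TSPAN14, and of CD151 and TSPAN4, which share 1 peak between their adjoining windows, so that 9 members had a peak in HPAF2 replicate 2 (beside 18.4% of the background genes) and 7 in replicate 1 (beside 16.1%), against the 4 called. CFPAC1 had the same 5 members in each list.

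**Figure D2:**
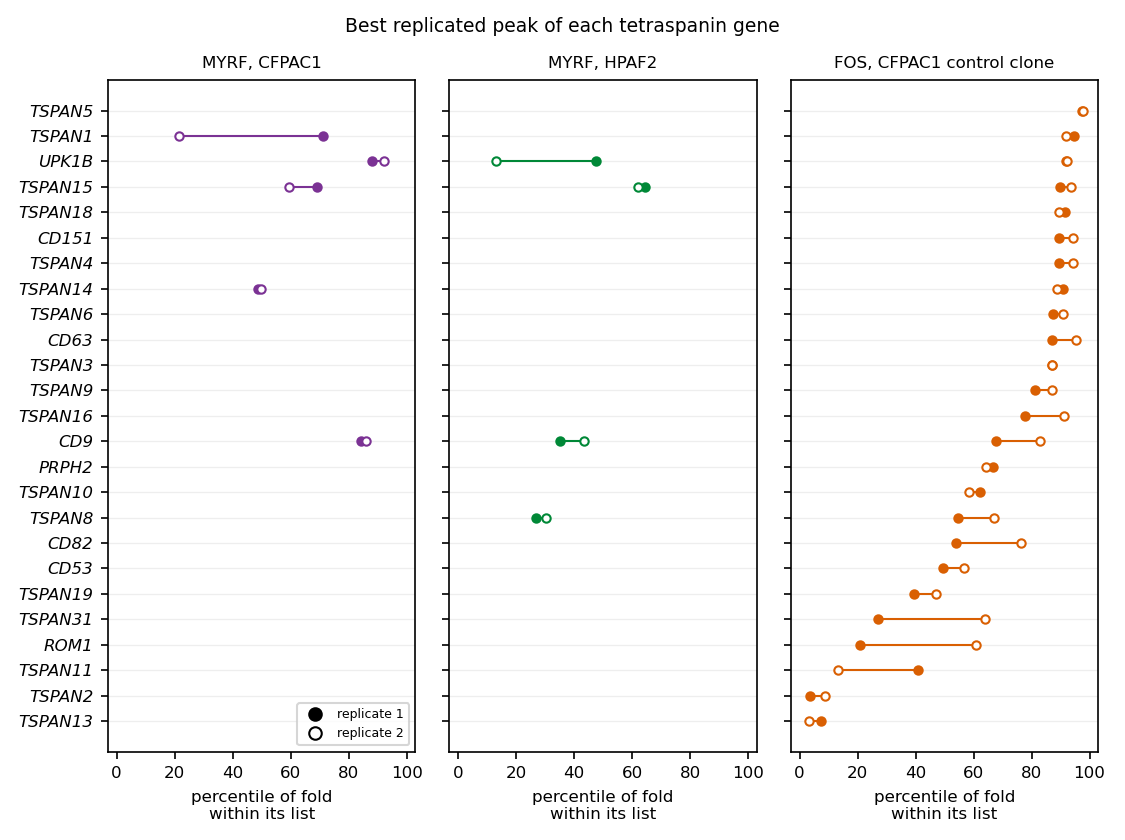
Each row is a tetraspanin gene with a replicated site, and points give the percentile, within its own list, of the fold enrichment of the gene's best replicated peak in replicate 1 (filled) and replicate 2 (open) for MYRF in CFPAC1, MYRF in HPAF2 and FOS. UPK1B and CD9 stand at percentiles between 84.1 and 92.2 for MYRF in the CFPAC1 lists, and TSPAN5, which has no MYRF site, leads for FOS. The best site is the one whose lower replicate percentile is highest, so the TSPAN8 promoter peak, at percentiles 16.8 and 66.1 in HPAF2, is not the one plotted for TSPAN8.

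The MYRF sites of these genes nearly all coincided with FOS. Of 9 distinct replicated CFPAC1 MYRF sites, 8 were overlapped by a FOS peak in both FOS replicates, beside 63.7% of all 2830 replicated CFPAC1 MYRF sites, and the site without FOS was the one upstream of TSPAN15. Counted by gene, 4 of the 28 members (14.3%) had a CFPAC1 MYRF site overlapped by FOS, beside 7.64% of the background genes, and the count fell to 1 with a -log10 q of at least 10, beside 2.57%. The ranks of the 2 factors differed within UPK1B. Where MYRF was strongest, 8566 bp into the gene, FOS had folds of 4.32 and 3.99, and where MYRF was weakest, 11393 bp in, FOS had 11.3 and 12.3. At the MYRF site of TSPAN1, FOS had folds of 12.9 and 12.1, at percentiles 94.6 and 92.0. HPAF2 MYRF sites can be set beside FOS of CFPAC1 only, since FOS was not mapped in HPAF2 in these lists.

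**Figure D3:**
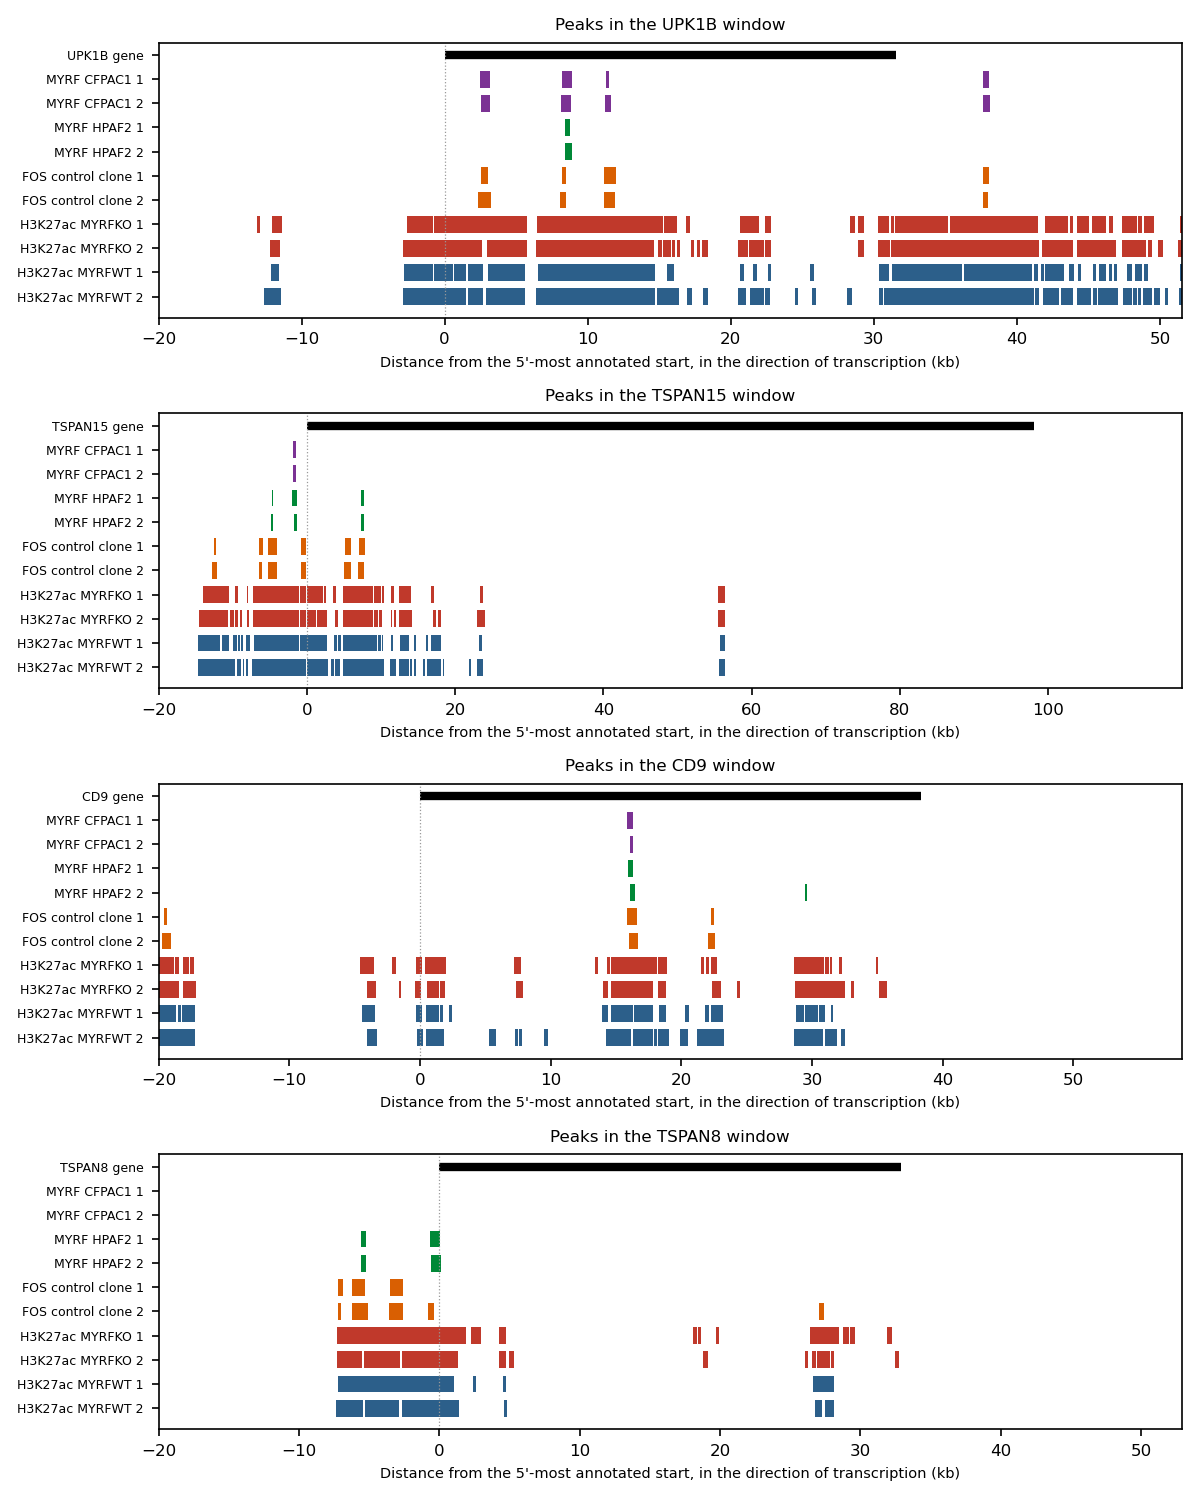
Bars mark peaks of each library against the distance in kb from the 5'-most annotated start, in the direction of transcription, for the windows of UPK1B, TSPAN15, CD9 and TSPAN8, with the gene in black. The MYRF peaks of both lines stack at 8.6 kb in UPK1B, just upstream of TSPAN15 and in the middle of CD9, and TSPAN8 has MYRF peaks in HPAF2 only.

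FOS sites were found in most tetraspanin windows. Replicated FOS sites lay in the windows of 25 of the 33 members, or 24 of the 28 acetylated ones (85.7%), beside 61.5% of the background genes, and the members had 2.37 sites per 100 kb of window, against 1.38 in the background. There were 60 distinct sites, of which 36 had their summit inside a member's own span, and 55 had H3K27ac within 1 kb in all 4 libraries, which 71.1% of all 27005 replicated FOS sites had. With a -log10 q of at least 10, 14 of the 28 acetylated members had a replicated site, beside 36.6% of the background genes, a smaller gap. The members also had more H3K27ac per window than the background, a median of 10.5% of the window in MYRFWT against 5.70%, and its part in the FOS count was not tested.

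TSPAN5, a TspanC8 member linked to Notch cleavage through ADAM10, had the strongest FOS peak of the family and 8 replicated sites, with no MYRF peak in any list. Its best site lay 15310 bp downstream of the start with folds of 15.6 and 17.4, at percentiles 97.4 and 97.7, and a second, 3994 bp downstream, had 13.0 and 18.3. TSPAN14 had 7 sites, with folds of 10.8 and 10.6 at the best, and TSPAN15 had 6, with 10.5 and 12.9 at a site 4628 bp upstream of the start. UPK1B had 4 sites, all 4 at its MYRF sites. Among the TspanC8 genes, TSPAN5, TSPAN14 and TSPAN15 thus held many FOS sites, in long windows of 228.2, 108.3 and 138.0 kb. TSPAN17 and TSPAN33 had no replicated site, in shorter windows of 51.57 and 64.99 kb. TSPAN17 had a peak in each FOS list, with folds of 5.22 and 6.81, but these did not overlap. The 2 sites of TSPAN10 lay nearest to NPLOC4.

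TSPAN18, described in endothelial cells, had 1 site with folds of 11.2 and 11.0. CD151 had 1 site inside the gene with 10.3 and 13.5, and the same peak is counted for its neighbour TSPAN4, a gene of migrasome formation, so both genes share 1 site. CD63, the vesicle marker, had 3 sites. The best, with 9.66 and 14.6, lay in BLOC1S1, and the one that overlapped a promoter window had 6.11 and 6.63. Promoter windows were counted by peak overlap, not by summit. CD63 and TSPAN15 were the members with a promoter window overlapped by a FOS peak in both replicates. They made up 2 of 25 (8.0%), beside 6.01% of other genes. Only the edges of these peaks reached the windows. The summits lay upstream of them, at 55729260 and 55729293 for CD63 and at 69450863 and 69451074 for TSPAN15. CD82, a suppressor of metastasis, had 2 sites with 5.64 and 7.74 at the best, and CD9 had 3, with 6.64 and 9.04 at its MYRF site.

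Other members with FOS were CD53, PRPH2, ROM1, TSPAN2, TSPAN3, TSPAN6, TSPAN8, TSPAN9, TSPAN10, TSPAN11, TSPAN13, TSPAN16, TSPAN19 and TSPAN31, with best folds in replicate 1 between 3.04 (TSPAN2) and 9.68 (TSPAN6). For several of them the best site lay nearer to a neighbour: SRPX2 for TSPAN6, TMEM205 for TSPAN16, LRIF1 for CD53, CDK4 for TSPAN31 and AGR2 for TSPAN13. The 8 members without a replicated FOS site were CD37, CD81, TSPAN7, TSPAN12, TSPAN17, TSPAN32, TSPAN33 and UPK1A. Only 2 of the 60 sites had no H3K27ac within 1 kb in any library, 1 of them inside CD53 and 1 inside TSPAN19.

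H3K27ac was missing from 1 or both control lists for 5 members, which are genes of blood cells or the nervous system, or of unclear tissue. Other members of particular tissues (CD53, PRPH2, ROM1, UPK1A and UPK1B) had H3K27ac in their windows in both control lists. TSPAN32 had 0 bp covered in all 4 libraries. TSPAN19 had 0 and 249 bp in MYRFKO and 0 and 0 bp in MYRFWT, and TSPAN7, a neuronal member, had 550 and 0 bp in MYRFKO and 0 and 0 bp in MYRFWT. CD37 had 475 and 259 bp in MYRFKO, against 0 and 253 bp in MYRFWT, and TSPAN33 had 458 and 200 bp in MYRFKO, against 0 and 204 bp in MYRFWT. Each of these values is at most 1 or a few short peaks. By marker genes, H3K27ac lay within 1 kb of the gene in all 4 libraries for 7 of 8 epithelial markers, with KRT19 the exception, for 3 of 7 leukocyte, 3 of 5 photoreceptor, 1 of 3 urothelial and 2 of 5 fibroblast markers. SPI1, UPK2, UPK3A and DCN were among those without it. The markers outside the epithelial list that had it were PTPRC, CD3E, LCP1, PDE6A, PDE6B, CNGA1, UPK3B, COL1A1 and PDGFRA.

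As a share of the window, H3K27ac was widest over UPK1B, with 54.2% and 56.7% covered in MYRFKO, against 46.7% and 57.3% in MYRFWT. TSPAN14 followed with 36.3% and 41.8% in MYRFKO, against 40.2% and 42.1% in MYRFWT, and CD151 with 41.9% and 36.8% in MYRFKO, against 31.0% and 40.0% in MYRFWT. UPK1B stood above both in every library, whereas TSPAN14 and CD151 overlapped each other. A further 8 genes had between 16.5% and 26.0% in every library, namely TSPAN4, TSPAN6, ROM1, CD63, TSPAN31, TSPAN1, CD9 and TSPAN15. TSPAN1 had 19.3% and 18.5% in MYRFKO, against 18.0% and 23.6% in MYRFWT. CD9 had 18.9% and 19.8% in MYRFKO, against 16.8% and 22.1% in MYRFWT. Windows shared with neighbouring genes count their acetylation too. TSPAN31, TSPAN1 and TSPAN4 each had 5 other genes reaching into the window, CD151 had 4 and UPK1B had 1. Part of the UPK1B coverage lay past the gene's end, 31.5 kb from its start. One such peak ran from 35.3 to 41.5 kb in MYRFKO replicate 1. In the CD151 window, regions nearest to PNPLA2, CRACR2B, POLR2L and TSPAN4 were counted too, and in the TSPAN6 window, regions nearest to SRPX2. CD81, the entry factor of hepatitis C virus, had 4.51% and 4.55% in MYRFKO, against 4.23% and 4.25% in MYRFWT, and UPK1A had 1131 and 1028 bp covered in MYRFKO, against 780 and 1259 bp in MYRFWT. At the low end, TSPAN12, a retinal Norrin co-receptor, had 1.04% and 1.18% in MYRFKO, against 1.08% and 1.19% in MYRFWT.

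**Figure D4:**
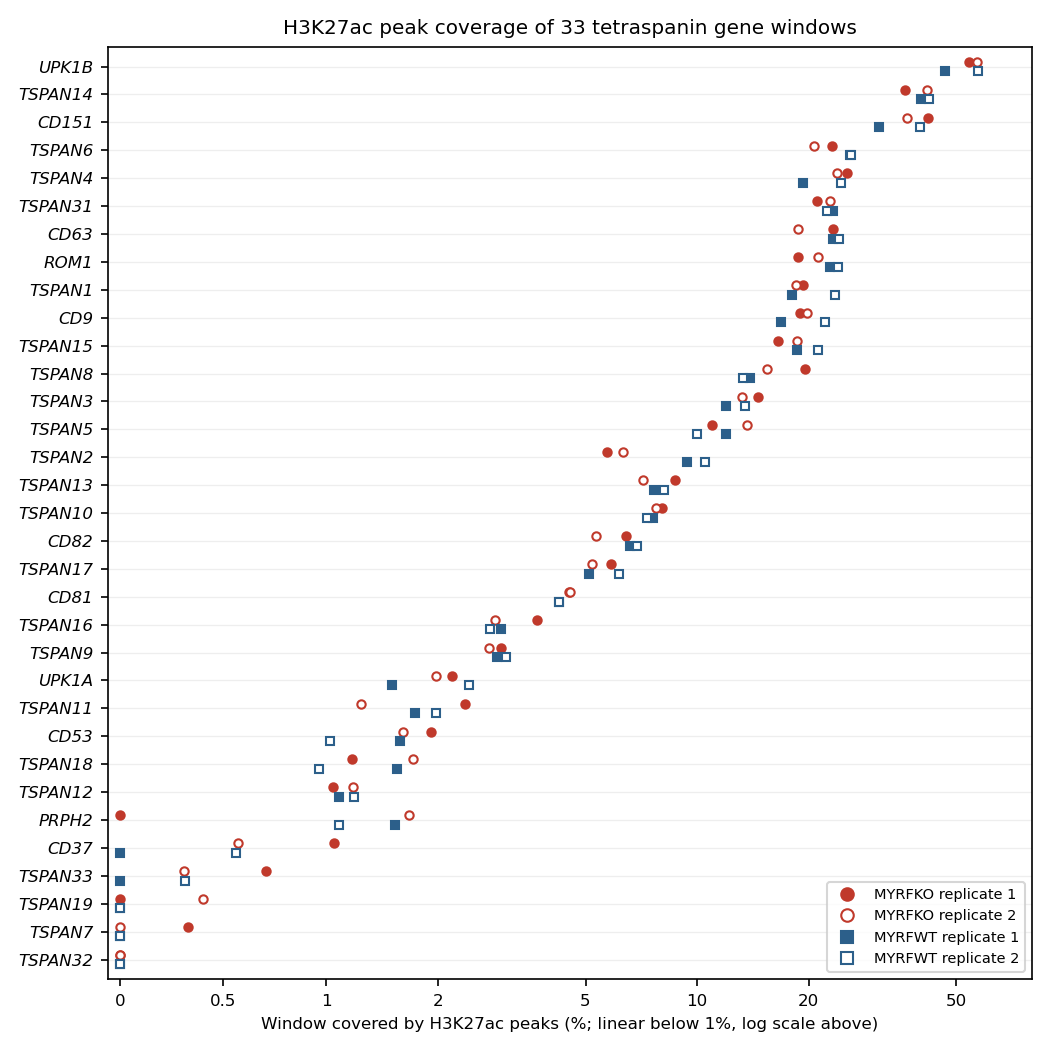
Points give the percentage of each tetraspanin window covered by H3K27ac peaks in the MYRFKO libraries (red circles) and the MYRFWT libraries (blue squares), replicate 1 filled and replicate 2 open, on an axis that is linear below 1% and logarithmic above. Coverage runs from 0% at TSPAN32 to 57.3% at UPK1B, and at TSPAN2 both MYRFKO points (5.73% and 6.30%) are left of both MYRFWT points (9.37% and 10.5%).

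Between the clones, no tetraspanin gene passed the test of H3K27ac coverage. The test was limma on log2(covered bp + 500), MYRFKO minus MYRFWT, with Benjamini-Hochberg adjustment over 16618 genes covered in at least 2 of the 4 libraries, 30 of them members. At an adjusted p under 0.05 it called 0 members and 0 genes in all, higher (0.0%) or lower (0.0%), and at an unadjusted p under 0.05 it had 247 higher and 756 lower genes, among them 0 and 1 members. The lowest adjusted p by limma was 0.723 among members and 0.677 over all genes. The median difference of the 30 members was 0.0016 on the log2 scale, against -0.049 over all genes fitted, with 15 members positive and 15 negative.

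TSPAN2, a tetraspanin of myelinating glia in rodents, had the largest difference of the family at the pseudocount of 500 bp. Its window was covered over 4671 and 5135 bp in MYRFKO, against 7633 and 8585 bp in MYRFWT, a log2 difference of -0.67 with a standard error of 0.12. The groups did not overlap, the unadjusted p was 0.0034 and the adjusted p by limma was 0.72. With a pseudocount of 100 bp its difference was -0.71, smaller in size than those of PRPH2 (-1.46), CD37 (1.27) and TSPAN33 (1.23), which have little H3K27ac. The gap was uneven across the regions of the window. A region centred 19825 bp downstream of the start had 719 and 201 bp in MYRFKO, against 1429 and 1727 bp in MYRFWT. One 4011 bp downstream had 0 and 372 bp in MYRFKO, against 576 and 1053 bp in MYRFWT. At 24850 bp downstream MYRFKO had 200 and 1580 bp, against 1697 and 1623 bp in MYRFWT. Most of the gap there thus came from MYRFKO replicate 1. At 26281 bp downstream there was little gap, with 760 and 691 bp in MYRFKO, against 760 and 744 bp in MYRFWT. At the region 398 bp downstream of the start the clones overlapped, with 562 and 225 bp in MYRFKO, against 556 and 638 bp in MYRFWT. No MYRF peak lay in the TSPAN2 window in any list, and its 1 replicated FOS site was among the weakest, with folds of 3.04 and 3.40.

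TSPAN8 had 14303 and 11215 bp in MYRFKO, against 10113 and 9719 bp in MYRFWT, a log2 difference of 0.34 with a standard error of 0.15 and an adjusted p by limma of 0.84. Without MYRFKO replicate 1 the difference was 0.17. The libraries of the clones did not overlap, and the single broad region over its promoter and upstream part had 9233 and 8334 bp in MYRFKO, against 8227 and 8344 bp in MYRFWT. TSPAN6 had 11554 and 10352 bp in MYRFKO, against 12899 and 12997 bp in MYRFWT, a log2 difference of -0.23 with a standard error of 0.11, and of -0.021 in windows of 5 kb. The region over its start had 1852 and 1676 bp in MYRFKO, against 1736 and 1832 bp in MYRFWT. The other regions of the TSPAN6 window lay nearest to SRPX2. The other differences named by size belong to genes with little H3K27ac: CD37 at 0.49 and TSPAN33 at 0.46, whose values in bp are given above, and PRPH2 at -0.60, with 0 and 1100 bp in MYRFKO, against 1010 and 715 bp in MYRFWT. Without MYRFKO replicate 1 the PRPH2 difference was 0.24, so 1 library sets its sign.

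**Figure D5:**
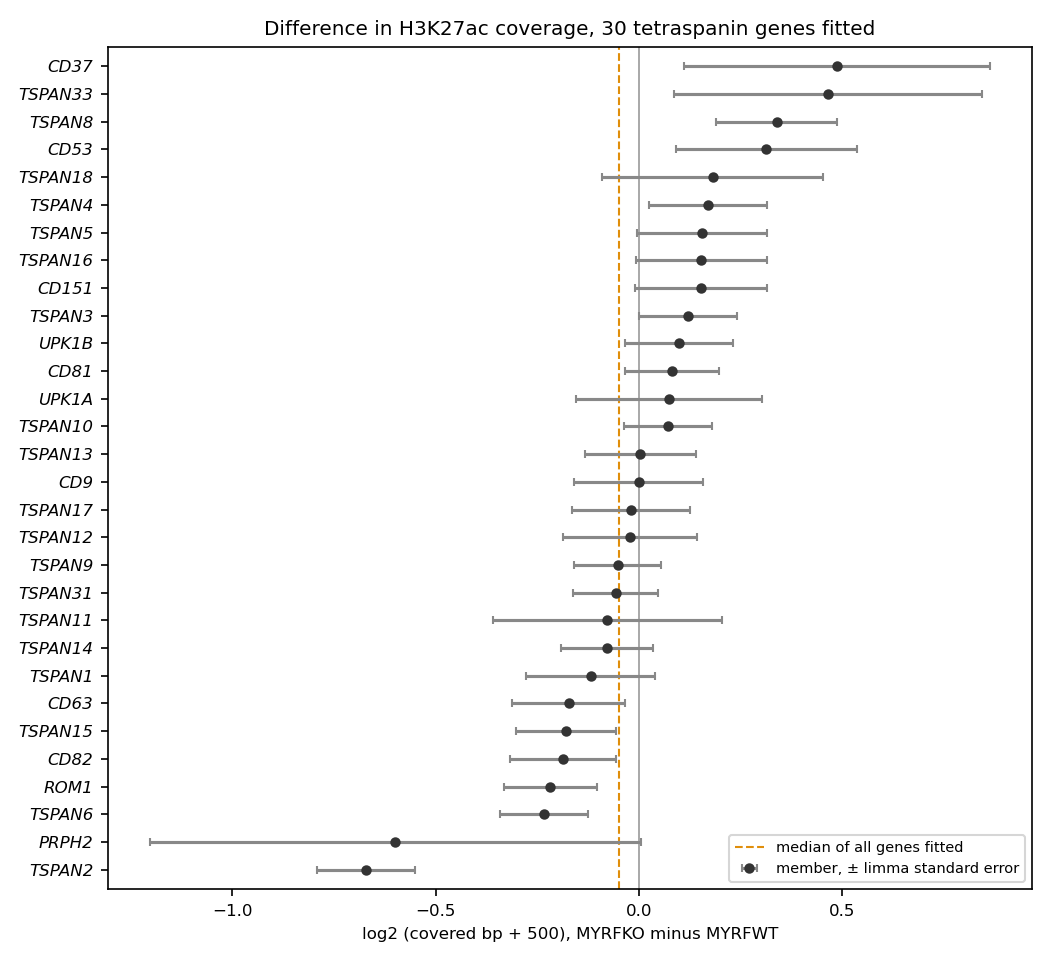
Points give the limma difference in log2(covered bp + 500), MYRFKO minus MYRFWT, for the 30 tetraspanin genes fitted, with bars of 1 standard error, and the dashed line marks the median of all genes at -0.049. TSPAN2 is the lowest at -0.67 with a short bar, PRPH2 has the longest bar, and the 5 genes with MYRF in CFPAC1 lie between -0.18 and 0.098.

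None of the 5 genes with a CFPAC1 MYRF site passed the limma test of H3K27ac coverage, which called 0 of the 16618 genes fitted. CD9 had 14777 and 15471 bp in MYRFKO, against 13188 and 17331 bp in MYRFWT, and a log2 difference of -0.00024 with a standard error of 0.16. UPK1B differed by 0.098 with a standard error of 0.13, TSPAN14 by -0.078 with 0.11 and TSPAN1 by -0.12 with 0.16. TSPAN15, with 22761 and 25624 bp in MYRFKO against 25643 and 29267 bp in MYRFWT, differed by -0.18 with a standard error of 0.12. Between 1669 and 2000 of the 2000 bp around each of the 9 CFPAC1 MYRF summits were covered in every library of both clones. Of all CFPAC1 MYRF sites, 81.9% had H3K27ac within 1 kb in all 4 libraries. Covered length this near its maximum cannot show a change in the level of acetylation. The H3K27ac peak over the CD9 site had folds of 10.3 and 15.8 in MYRFKO and of 22.2 and 21.6 in MYRFWT, and that over the strongest UPK1B site had 31.6 and 31.3 in MYRFKO and 21.0 and 30.5 in MYRFWT, values that can be ranked only within their own list.

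In 5 members both MYRFKO libraries had more coverage than both MYRFWT libraries (CD37, CD53, CD81, TSPAN8 and TSPAN10), 16.7% of the 30, beside 11.0% of all genes fitted. In another 5 both had less (CD82, ROM1, TSPAN2, TSPAN6 and TSPAN15), 16.7% beside 25.2%. The lists of MYRFKO covered 87.9 and 93.0 Mb of the genome and those of MYRFWT 100.5 and 95.2 Mb. The counts were therefore repeated after scaling each library to its total. Scaling treats this gap as technical, which was not tested. After scaling, 12 of the 30 members (40.0%) were higher, beside 22.0% of all genes, and 1 (3.33%), TSPAN2, was lower, beside 11.3%. These counts thus hinge on the scale used. The median log2 difference over all genes was then 0.051 in place of -0.049, with the members at 0.11. On both scales TSPAN2 was lower without overlap, and CD37, CD53, CD81, TSPAN8 and TSPAN10 were higher. The share of all genes that kept a direction on both scales was not counted, so these names are a description only. Such a gap could be small, as at CD81, with 2761 and 2788 bp in MYRFKO, against 2588 and 2601 bp in MYRFWT.

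Single H3K27ac regions present in both libraries of one clone and in neither of the other were counted by gene and by region. Regions lost in MYRFKO lay in the windows of 10 of the 28 members (35.7%), beside 17.8% of the background genes: CD9, CD63, CD82, TSPAN3, TSPAN5, TSPAN6, TSPAN14, TSPAN15, TSPAN16 and UPK1B. The members have more regions, a median of 8.5 per gene against 6.0, and per region the share was 11 of 152 MYRFWT regions (7.24%), beside 6.19% in the background. Their folds in MYRFWT ran from 2.31 to 6.08. The lost region of CD9 was 711 bp long, inside the gene, with folds of 3.11 and 3.77, and that of TSPAN6, the longest at 1237 bp with 4.60 and 6.08, lay in SRPX2. No lost region was touched by a MYRF peak, and 1 of the 2 lost regions of TSPAN3, 14508 bp from the gene, was overlapped by FOS with folds of 5.19 and 8.78.

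Regions gained in MYRFKO lay in the windows of 3 members, TSPAN5 with 2, UPK1B with 1 and TSPAN33 with 1 that lies in SMO. By the acetylated genes this is 2 of 28 (7.14%), beside 11.6% of the background, and per region 4 of 145 (2.76%), beside 3.40%. Their folds in MYRFKO ran from 3.60 to 6.03. Both counts hinge on which lists are used. The counts that follow are over all 33 members, whereas the shares beside them are over the acetylated background genes. Without MYRFWT replicate 1, lost regions were counted in 21 members (beside 43.9% of the background genes) and gained ones in 6 (23.5%), and without MYRFWT replicate 2 gained ones in 9 (21.5%). Without MYRFKO replicate 1 gained ones were counted in 14 (37.8%), and without MYRFKO replicate 2 in 19 (40.2%). With a -log10 q of at least 10, lost regions were counted in 4 members (10.9%) and gained ones in 1 (4.14%).

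A list of 31 genes of tetraspanin partners and of vesicle formation was drawn from general knowledge, with earlier results of these data known. Its counts are therefore not a result about the partners as a set. Of the 31, 29 had H3K27ac in both control lists and 21 had FOS (beside 61.5% of the background genes). A replicated MYRF site was found for 8 in CFPAC1 (beside 12.9%), 11 in HPAF2 (12.4%) and 6 in both (7.34%). The 6 were ITGA3 and ITGB4, integrin chains bound by CD151, the receptors EGFR and MET, ARRDC1, a vesicle-budding arrestin, and HBEGF, a growth factor precursor that associates with CD9. MET had folds of 8.52 and 10.5 in CFPAC1 and of 9.35 and 7.62 in HPAF2. The largest values, 22.9 and 24.9 in CFPAC1 and 31.0 and 20.7 in HPAF2, were at HBEGF, at a site nearer to SLC4A9, and the ITGB4 site lay nearer to SAP30BP. ADAM10, the TspanC8 cargo, had a FOS site with 3.78 and 4.80 and no MYRF site in either line. CD81 and IGSF8, which bind each other, both lacked MYRF and FOS sites.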

How the data were processed

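MYRF, FOS and H3K27ac peak lists of 10 libraries were used, grouped by their titles, and 1 HPAF2 input sample was not analysed here. Trimmomatic 0.38, Bowtie2 2.2.6, SAMtools, MACS2 2.1.0.20150731 and GRCh38 are named by the submitters' processing notes. Each deposited peak carries the authors' fold enrichment (a ratio), -log10 p, -log10 q and score. Read counts were not given with the deposited lists, so depth is unknown, and a peak under the caller's threshold looks absent. The control behind the CFPAC1 peaks is not given in the sources used here. The lists held 4743 and 4041 (CFPAC1 MYRF), 3702 and 4326 (HPAF2 MYRF), 29087 and 36349 (FOS), 107586 and 110498 (MYRFKO) and 116466 and 109352 (MYRFWT) peaks.

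Covered length per window was tested with limma 3.58.1 (trend) in R 4.3.3, with a pseudocount of 500 bp. The fit was run on simulated data with the same spread for every gene, which does not show what changes it could detect in these lists. Overlaps were checked against bedtools 2.31.1, using Python 3.11.15, numpy 2.4.6, pandas 2.3.3 and matplotlib 3.10.9. Distances refer to the nearest annotated RefSeq start.

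Members, lists, markers and tests were chosen with earlier results of these data known. The rule named members with a replicated MYRF site, the 8 with the best FOS site, the 3 highest and 3 lowest coverage differences, members with lost or gained regions or without H3K27ac, and partners with MYRF in both lines. Alternatives were windows of 5 and 50 kb, a -log10 q of at least 10, a reciprocal overlap of 50%, nearest-gene assignment, other pseudocounts, scaling, no filter, a replicate block and leaving out each replicate.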

Additional observations from a re-analysis of the deposited data

How the results depend on the processing

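Depth is unknown, and weak peaks decide many calls. Member counts of sites and regions in this section are over all 33 members, and background shares are over the acetylated genes. With windows extended to 50 kb, MYRF sites were counted for 8 members in CFPAC1, 7 in HPAF2 and 5 in both, beside 3224, 3182 and 1942 of the 16100 background genes, more than the 2080, 1998 and 1181 at 20 kb. With a -log10 q of at least 10 the counts were 3 and 1 for MYRF in CFPAC1 and HPAF2, 1 in both lines (beside 3.26% of the background genes), 14 for FOS, 1 for MYRF with FOS, 4 for lost and 1 for gained regions, with the other background shares in the report, and the PRPH2 difference was 0.058. Counting single peaks of one clone gave 5 members with a gained region, beside 14.7% of the background genes. Leaving out 1 library at a time gave 7 to 9 members for HPAF2 MYRF, 11 to 21 for lost and 6 to 19 for gained regions, and PRPH2 differences from -1.44 to 0.24, with the positive value without MYRFKO replicate 1; the cause was not tested. The limma calls for members stayed at 0 under every setting run, including no filter on covered genes, where 5 genes were higher and 7 lower in all. Replicates with the same number were not shown to be paired, since their deviations correlated at -0.162. With the replicate block the members' median stayed at 0.0016 with 0 calls, and a crossed replicate block, added after seeing the data, also gave 0 calls. Over all alternatives of the main results, 76 were labelled as unchanged and 18 as moved. A count was unchanged if it stayed within 1.5 times the value reported, or if both were 0. The unchanged ones thus include the limma counts of members, which were 0 under every setting. The members' median difference was labelled by another rule, a shift smaller than their median residual standard deviation.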
